A study of Mus musculus with 9 samples.

Results

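The genes described here are 32 enzymes and regulators of fatty acid and triglyceride synthesis, picked by symbol from a table of 22527 gene symbols measured in ribosome-bound RNA from mouse fat. All 32 symbols were found, and 26 reached 1 FPKM (the expression unit of the table) in at least 3 libraries and were tested; the other 6 were at most 1.11 FPKM in any library. Their products supply carbon and reducing power, build and desaturate fatty acids, attach them to glycerol, or control the genes that do so. The values came from the brown fat depot (BAT), the inguinal white depot (iWAT, a pad under the skin) and the epididymal white depot (eWAT, a pad in the abdomen), with 3 libraries per depot and 9 in all.

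Every group was labelled C57BL/6, 8 weeks of age and wild type, with no treatment stated, so the depot is the only labelled difference between groups. Tissue pieces had been homogenized and incubated with an antibody against green fluorescent protein (GFP), and the RNA bound to the captured ribosomes had been stripped of ribosomal RNA and sequenced as single-end reads. The name of the deposited table refers to adiponectin, a hormone made by adipocytes, but the labels do not describe the tagged allele or what drives it, and the genotype field gives wild type only. Nothing in the labels says whether the 3 libraries of a depot came from separate animals, so p-values measure the spread between these libraries, which may be technical. One of the 3 brown fat libraries, BAT 3, is brown by its title and source name but carries inguinal fat in its tissue field. Its Ucp1 value, the heat-producing uncoupling protein of brown adipocytes, was 3054 FPKM, beside at most 3.38 FPKM in any white fat library.

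Fatty acids are made in the cytosol from acetyl-CoA, which ATP citrate lyase releases from citrate. Acetyl-CoA carboxylase turns it into malonyl-CoA, fatty acid synthase extends the chain to palmitate, and desaturases introduce double bonds. Triglycerides are then assembled on glycerol 3-phosphate in successive acylations by the GPAT, AGPAT and DGAT enzymes, with lipins removing the phosphate between them, while a separate route acylates monoacylglycerol. In adipocytes the transcription factors SREBP-1 and ChREBP (encoded by Srebf1 and Mlxipl) are known regulators of these enzymes, and brown fat is known to run synthesis and oxidation of fatty acids side by side.

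The start regions of the genes at the centre of the results are shown first. Each is the 250 bases before a RefSeq transcription start, taken from a RefSeq table of build GRCm38.p6 and matched exactly and once to build mm9, whose coordinates are given. Sequences run 5′ to 3′ on the strand of the gene. Capitals mark 4 motifs searched on both strands: the sterol regulatory element TCACNCCAC, the E-box CACGTG, the CCAAT box CCAAT and the GC box GGGCGG. None of the 4 motifs contains another, and matches of 2 motifs may overlap.
Fasn: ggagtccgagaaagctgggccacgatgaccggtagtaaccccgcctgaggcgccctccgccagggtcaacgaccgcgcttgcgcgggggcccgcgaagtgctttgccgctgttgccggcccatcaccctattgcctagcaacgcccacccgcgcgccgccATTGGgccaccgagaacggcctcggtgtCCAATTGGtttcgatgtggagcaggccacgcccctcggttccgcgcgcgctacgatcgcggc
Thrsp: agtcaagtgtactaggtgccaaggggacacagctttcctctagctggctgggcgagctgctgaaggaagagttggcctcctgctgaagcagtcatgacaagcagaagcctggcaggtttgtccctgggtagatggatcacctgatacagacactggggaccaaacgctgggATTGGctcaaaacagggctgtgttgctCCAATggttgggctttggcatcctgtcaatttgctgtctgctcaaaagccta
Agpat2: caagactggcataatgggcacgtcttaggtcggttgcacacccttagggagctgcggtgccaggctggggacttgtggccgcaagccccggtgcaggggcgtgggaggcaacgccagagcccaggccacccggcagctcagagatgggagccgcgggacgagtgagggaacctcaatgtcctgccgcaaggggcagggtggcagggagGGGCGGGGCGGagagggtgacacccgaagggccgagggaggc
Fads3: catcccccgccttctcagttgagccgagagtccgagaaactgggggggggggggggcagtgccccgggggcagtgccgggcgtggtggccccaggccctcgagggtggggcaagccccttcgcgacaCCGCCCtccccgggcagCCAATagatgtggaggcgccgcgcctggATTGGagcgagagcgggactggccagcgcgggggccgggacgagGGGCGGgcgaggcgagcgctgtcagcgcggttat
Mlxipl, start at the 5′ end of the gene model: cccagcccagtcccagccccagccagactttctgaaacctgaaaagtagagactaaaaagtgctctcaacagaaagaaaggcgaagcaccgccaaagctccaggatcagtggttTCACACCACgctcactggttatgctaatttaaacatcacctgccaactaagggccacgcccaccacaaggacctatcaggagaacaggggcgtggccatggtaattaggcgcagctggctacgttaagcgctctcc
Mlxipl, start further upstream: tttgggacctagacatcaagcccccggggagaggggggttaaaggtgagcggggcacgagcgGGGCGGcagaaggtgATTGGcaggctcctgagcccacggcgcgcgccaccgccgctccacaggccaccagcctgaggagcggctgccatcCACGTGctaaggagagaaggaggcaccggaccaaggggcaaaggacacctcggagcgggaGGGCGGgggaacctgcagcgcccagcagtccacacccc

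Fasn is an enzyme called higher in both BAT comparisons, and Thrsp is the only listed regulator so called, with a weak call against eWAT. Agpat2 had the largest positive difference of the tested members in both BAT comparisons, and Fads3 had the most negative. Fasn (chr11:120685862-120686111, minus strand) held 3 CCAAT boxes, at positions -90, -62 and -59 from the start. Thrsp (chr7:104566061-104566310, minus strand) held CCAAT boxes at -79 and -52. In the annotation used for gene positions, the 5′ end of Fasn is at 120685492 and that of Thrsp at 104566240. The RefSeq start of Fasn thus lies upstream of its annotated gene model, and part of the Thrsp bases shown lies inside its model. Agpat2 (chr2:26459938-26460187, minus strand) held GC boxes at -42 and -37. Fads3 (chr19:10115788-10116037, plus strand) held CCAAT boxes at -106 and -78 and GC boxes at -123 and -34, so the CCAAT box stood both in genes higher and in a gene lower in BAT.

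Mlxipl, the ChREBP gene, has 2 RefSeq starts 17001 bases apart. The start at the 5′ end of the annotated gene model (chr5:135582511-135582760, plus strand) held the sterol regulatory element at -136. The start further upstream (chr5:135565510-135565759, plus strand) held an E-box at -98, a CCAAT box at -173 and GC boxes at -188 and -38. The table has 1 value per gene, so RNA from these starts cannot be told apart here.

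Windows of 300 bases, from 250 before to 50 after the start, were found for 24 of the 32 genes, 33 windows in all. CCAAT boxes were in 48.5% of these windows and in 37.4% of the 32851 windows of the whole RefSeq table, and GC boxes in 48.5% and 35.7%. The E-box was in 9.09% of the members' windows and 7.15% of all windows. The sterol regulatory element was in 3.03%, 1 window of 33, against 1.24% of all windows. These matches are descriptions of the letters in the windows and were not tested against the expression values.

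The values are FPKM, fragments mapped to a gene per unit of transcript length and of library depth; between libraries they were compared as deposited, and under other scalings as alternatives. Estimated depth, in M reads (mega-reads), ran from 11.1 to 21.1 in BAT, 2.91 to 4.65 in iWAT and 4.44 to 16.2 in eWAT, so the shallowest BAT library exceeded the deepest of iWAT. Brown adipocyte markers (4 genes) summed to 23934 to 26958 FPKM in BAT, 218 to 526 in iWAT and 53.9 to 79.3 in eWAT. Adipocyte markers shared by the depots (6 genes, mainly Fabp4) summed to 23996 to 29008, 31291 to 48264 and 42214 to 59029.5 FPKM. The members did not all run this way. Plin1 had means of 429, 165 and 403 FPKM and Pparg 110, 37.1 and 84.0 in BAT, iWAT and eWAT. Adipoq, Fabp4, Cidec and Lipe had their highest mean in eWAT and their lowest in BAT. White adipocyte markers (4 genes) summed to 97.9 to 256, 1869 to 5657 and 6463 to 10214 FPKM in the same order. Markers of endothelium and macrophages summed to at most 3.71 and 9.77 FPKM in any library. Skeletal muscle markers (7 genes) summed to 60.4 to 149 FPKM in BAT, 1761 to 2478 in iWAT and 227 to 1266 in eWAT. These sums were mainly Acta1 and, in white fat other than eWAT 1, Pvalb. Within iWAT the muscle markers ran opposite ways. Acta1 and Pvalb were highest in iWAT 2, while Ckm (94.0, 25.3 and 39.5 FPKM), Tnnc2 (310, 69.3 and 101), Tnni2, Myh4 and Mylpf were highest in iWAT 1. Markers of epithelium and skin (8 genes) summed to 28.8 to 61.5 FPKM in BAT, 202 to 562 in iWAT and 83.8 to 276 in eWAT. Sebaceous gland markers (5 genes, mainly Krt79) summed to 11.6 to 15.6 FPKM in BAT, 1.08 to 4.94 in iWAT, with iWAT 1 the highest of the 3, and 6.47 to 10.7 in eWAT. Stromal progenitor markers (4 genes) summed to 2.91 to 15.9 FPKM in BAT, 77.9 to 345 in iWAT and 58.8 to 162 in eWAT. Between the white depots its members ran opposite ways. Dpt had means of 206 FPKM in iWAT and 43.9 in eWAT, and Dcn 4.03 and 53.8. Pdgfra and Pi16 stayed at or below 0.806 and 0.859 FPKM, so the sum does not rank the white depots. These lists move with the depots, and their part in the results below was not tested. The iWAT 1 library stood apart from its group: across tested genes its log2 values correlated at 0.945 to 0.963 with the 3 eWAT libraries but at 0.899 and 0.934 with iWAT 2 and 3.

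Of the 26 tested genes, 14 were higher and 5 lower in BAT than in iWAT. The same test called 34.5% of all 10374 tested genes higher and 22.9% lower. Of those 5, Fads2 and Lpin3 passed the 1 FPKM filter only through white fat libraries, where they were high, so their calls are not read as results, and the other 3 are Fads1, Fads3 and Agpat9. Within BAT, Fads1 reached 1 FPKM only in BAT 2 and BAT 3. It therefore also needed white fat libraries to pass, and its calls carry that limit. In BAT against eWAT, 11 were higher and 4 lower, beside 20.2% and 13.5% of all tested genes. A gene was called where limma on log2(FPKM + 1) gave a Benjamini-Hochberg adjusted p below 0.05, adjusted over all tested genes, and the log2 differences below are on that scale, which understates the change of low genes. Genes higher in both comparisons numbered 11 (Acly, Acss2, Acacb, Fasn, Thrsp, Gpam, Agpat6, Agpat1, Agpat2, Agpat3 and Dgat2), and 3 were lower in both (Fads1, Fads3 and Agpat9); the comparisons share the BAT libraries. Over all tested genes, 19.3% were higher in both and 8.98% lower in both. The libraries of BAT and iWAT did not overlap for 15 members with BAT higher and 5 with BAT lower, beside 38.5% and 27.2% of all tested genes. For BAT and eWAT these were 15 and 6 members, beside 32.0% and 22.7%. Median log2 differences of the 26 genes were 1.34 in BAT against iWAT and 0.90 in BAT against eWAT, beside 0.23 and -0.02 over all tested genes. The balance of calls depended on how libraries were put on 1 scale. Median-ratio scaling, which centres libraries on genes seen in all of them, gave 2835 genes higher and 3017 lower in BAT against iWAT, in place of 3583 and 2378, and 14 and 7 members. Quantile normalization, which gives all libraries 1 distribution, gave 2936 and 2851 genes, and 12 and 8 members. Scaling on 6 adipocyte markers gave 3613 and 499 genes in BAT against eWAT, in place of 2094 and 1398, and 16 and 4 members. In ribosome-bound RNA captured from homogenized tissue, as here, fewer cells of a type and less captured RNA per cell cannot be told apart.

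**Figure D1:**
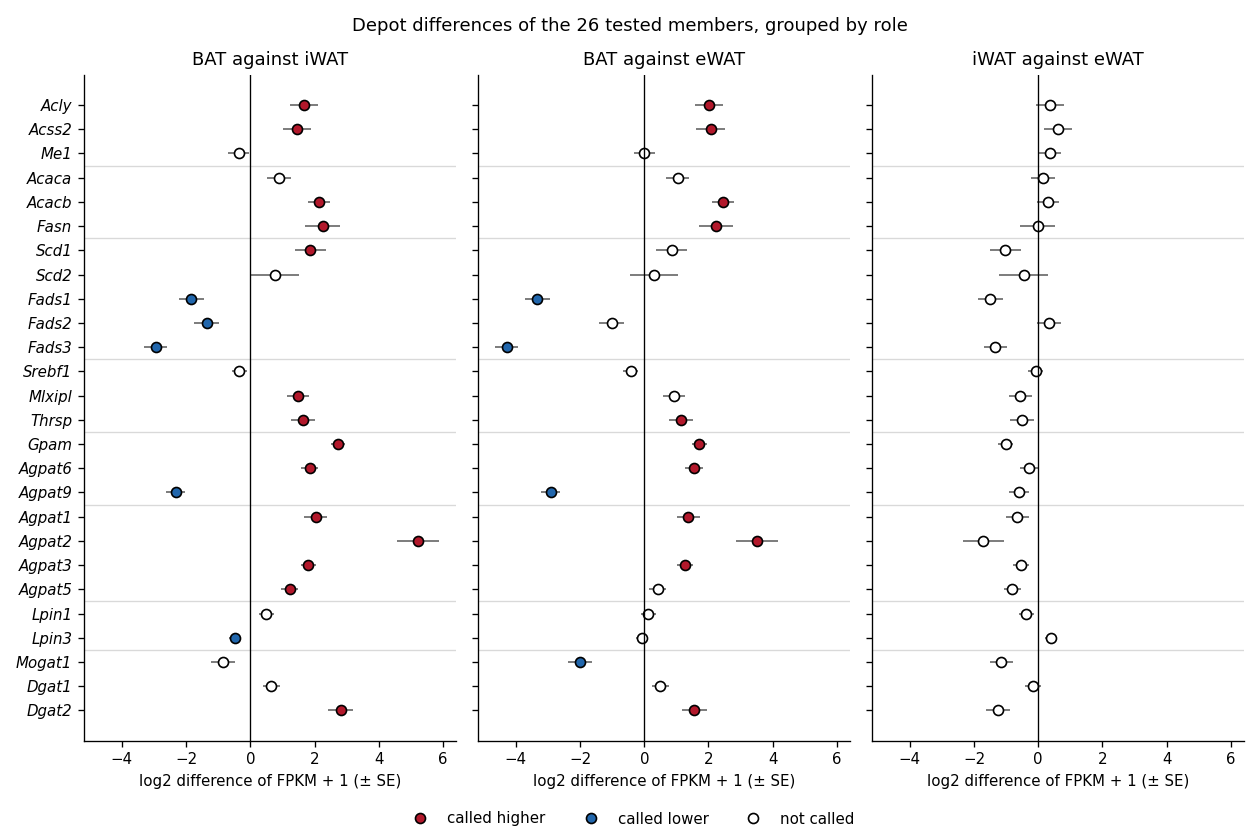
Log2 differences of the 26 tested genes in BAT against iWAT, BAT against eWAT and iWAT against eWAT (x axis, log2(FPKM + 1) units, with standard errors), grouped by role; filled points passed an adjusted p below 0.05. Most enzymes of synthesis and acylation lie to the right in the BAT comparisons, while Fads1, Fads3 and Agpat9 lie to the left, and no gene passed in iWAT against eWAT.

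Carbon and NADPH supply. Acly, ATP citrate lyase, had 173, 76.4 and 105 FPKM in the BAT libraries, 55.0, 33.9 and 21.7 in iWAT and 15.3, 32.7 and 37.5 in eWAT. The lowest BAT library lay above the highest white fat library. Acly was higher in BAT than in iWAT (log2 difference 1.67, SE 0.43, adjusted p = 0.00855) and than in eWAT (log2 difference 2.03, SE 0.43, adjusted p = 0.00508). Acss2, which makes acetyl-CoA from acetate, had 126, 68.7 and 87.5 FPKM in BAT, 56.1, 24.4 and 25.4 in iWAT and 11.2, 23.1 and 35.3 in eWAT. It was higher in BAT in both comparisons (iWAT: log2 difference 1.45, SE 0.44, adjusted p = 0.0172; eWAT: log2 difference 2.06, SE 0.44, adjusted p = 0.00492), with no overlap between BAT and white fat libraries. The call against iWAT was lost without BAT 1 (adjusted p = 0.0661), iWAT 2 (0.0611) or iWAT 3 (0.0637) and with libraries scaled on 6 adipocyte markers (0.0602).

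Me1, the cytosolic malic enzyme that makes NADPH, was not called in either BAT comparison. Its values were 152, 207 and 130.02 FPKM in BAT, 257, 218 and 156 in iWAT and 105, 243 and 161 in eWAT, overlapping throughout. The difference was -0.36 against iWAT (adjusted p = 0.364) and 0.00 against eWAT (adjusted p = 0.999). With quantile normalization Me1 was called lower in BAT than in iWAT (-0.97, adjusted p = 0.0237).

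Malonyl-CoA and palmitate synthesis. Fasn, fatty acid synthase (chromosome 11, 120667254 to 120685492, minus strand), had 399, 305 and 220.5 FPKM in BAT, 156, 50.1 and 30.1 in iWAT and 38.0, 94.3 and 69.0 in eWAT. The means were 308 ± 89.3, 78.8 ± 67.8 and 67.1 ± 28.2 FPKM (SD, n = 3), and every BAT value exceeded every white fat value. Fasn was higher in BAT than in iWAT (log2 difference 2.25, SE 0.54, adjusted p = 0.00594) and than in eWAT (log2 difference 2.23, SE 0.54, adjusted p = 0.0100). Most of the spread within iWAT was due to iWAT 1, which stood above iWAT 2 and 3 by more than any difference between the eWAT libraries.

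Of the 2 acetyl-CoA carboxylases, Acacb passed in both BAT comparisons and Acaca in neither; their differences were not tested against each other. Acacb, the mitochondrial form whose malonyl-CoA is known to restrain fatty acid oxidation, had 35.1, 28.8 and 25.7 FPKM in BAT, 10.9, 5.15 and 3.49 in iWAT and 5.12, 3.47 and 5.56 in eWAT. It was higher in BAT than in iWAT (log2 difference 2.15, SE 0.34, adjusted p = 0.000671) and than in eWAT (log2 difference 2.44, SE 0.34, adjusted p = 0.000404). Acaca, the cytosolic form that feeds synthesis, had 56.3, 41.6 and 38.4 FPKM in BAT, 40.7, 20.5 and 15.8 in iWAT and 13.9, 28.2 and 24.6 in eWAT. BAT and iWAT overlapped for Acaca through iWAT 1, and BAT and eWAT did not overlap. Neither comparison passed the test (iWAT: log2 difference 0.89, SE 0.37, adjusted p = 0.0596; eWAT: log2 difference 1.04, SE 0.37, adjusted p = 0.0523). Without iWAT 1, Acaca was called higher in BAT than in iWAT (1.27, adjusted p = 0.00580), and without eWAT 1 as well (0.89, adjusted p = 0.0411). Against eWAT it was called higher without iWAT 1 (adjusted p = 0.0150) or iWAT 3 (0.0465), with median-ratio scaling (0.0339), with adipocyte-marker scaling (0.00593) and among genes with a mean of at least 5 FPKM (0.0494). The FPKM ratio of Acaca to Acacb ran from 1.45 to 1.603 in the BAT libraries, 3.72 to 4.53 in iWAT and 2.71 to 8.13 in eWAT. Acaca thus exceeded Acacb in every library, least in BAT; ratios between genes were not tested.

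**Figure D2:**
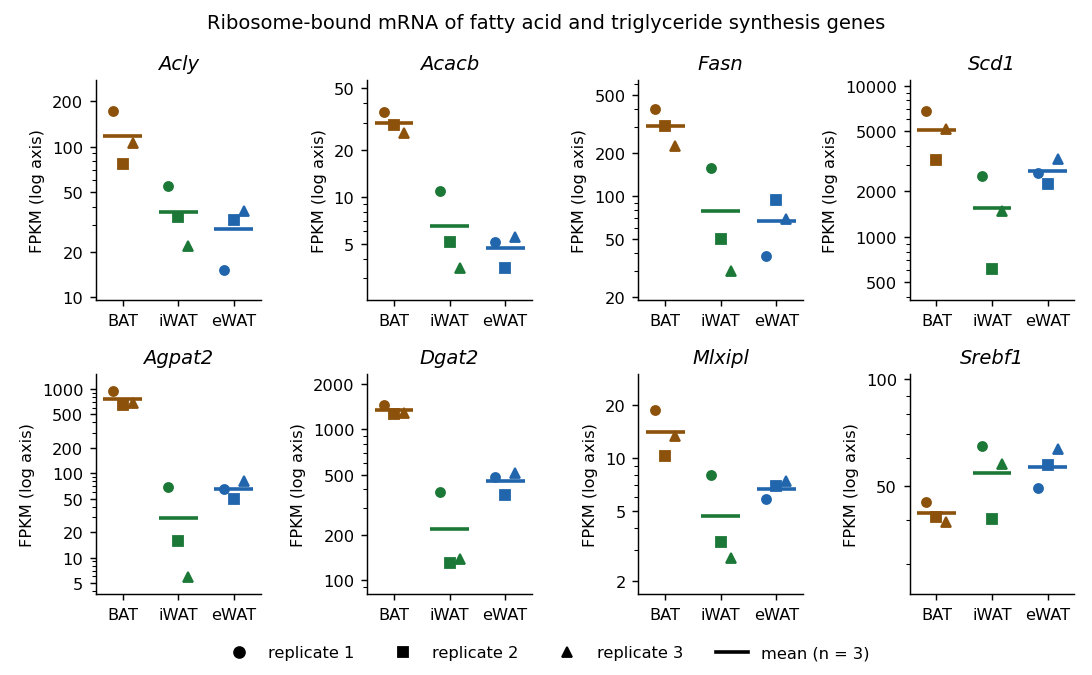
FPKM of Acly, Acacb, Fasn, Scd1, Agpat2, Dgat2, Mlxipl and Srebf1 (log axes) in the 3 libraries of each depot, with bars at the mean (n = 3) and marker shapes for replicate numbers. Fasn lies between 220.5 and 399 FPKM in BAT and between 30.1 and 156 FPKM in iWAT; Srebf1 lies between 39.6 and 64.8 FPKM in all 9 libraries.

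Desaturases. Among the 5 tested desaturases, Scd1 was higher in BAT than in iWAT, while Fads3 was lower. The related Fads1, a desaturase of polyunsaturated fatty acids, was also called lower. Its call carries the limit that it passed the filter only with the help of white fat libraries. Scd1, stearoyl-CoA desaturase and the most abundant member in every depot mean, had 6808, 3231 and 5157 FPKM in BAT, 2538, 609 and 1493 in iWAT and 2636, 2241 and 3264 in eWAT. It was higher in BAT than in iWAT (log2 difference 1.87, SE 0.47, adjusted p = 0.00736), a call that was lost with quantile normalization (1.13, adjusted p = 0.0766). BAT and eWAT overlapped, and that difference did not pass (log2 difference 0.85, SE 0.47, adjusted p = 0.181), although it did with adipocyte-marker scaling (1.53, adjusted p = 0.00665).

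Scd2 had 63.0, 8.58 and 50.8 FPKM in BAT, 46.0, 5.99 and 19.03 in iWAT and 23.3, 21.7 and 29.9 in eWAT, with no call in either BAT comparison (0.76, adjusted p = 0.405, against iWAT and 0.30, adjusted p = 0.779, against eWAT). In both BAT and iWAT the replicate 2 library was the lowest, at 8.58 and 5.99 FPKM. Scd3 and Scd4 stayed at or below 0.478 and 0.531 FPKM and were not tested. The 4 Scd genes stand side by side on chromosome 19, from 44277759 to 44482199, and their transcripts are alike: the longest aligned stretches were 90.4% identical between Scd1 and Scd3 and 86.8% between Scd1 and Scd2. Reads could therefore be split between them, and the low Scd values are uncertain. Scd1 made up 99.0 to 99.7% of the family's summed FPKM in BAT, 98.2 to 98.9% in iWAT and 99.0 to 99.1% in eWAT.

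Fads1 and Fads3 were among the genes lower in BAT. Fads1, the delta-5 desaturase of polyunsaturated fatty acids (chromosome 19, 10257378 to 10271360, plus strand), had 0.811, 1.48 and 1.497 FPKM in BAT, 15.4, 3.87 and 5.44 in iWAT and 22.7, 20.9 and 20.9 in eWAT. No BAT library reached 2 FPKM, and no white fat library was below 3.87 FPKM. With BAT 1 below 1 FPKM, Fads1 met the filter of 3 libraries only with the help of white fat, where it was high. Its mean was 17.0 times as high in eWAT as in BAT and 6.51 times as high in iWAT (iWAT: log2 difference -1.84, SE 0.39, adjusted p = 0.00313; eWAT: log2 difference -3.33, SE 0.39, adjusted p = 0.000132). Without iWAT 1 the iWAT mean was 3.68 times that of BAT. Fads3, a related desaturase (chromosome 19, 10116038 to 10134161, plus strand), had 1.31, 1.67 and 2.46 FPKM in BAT, 37.6, 11.2 and 19.8 in iWAT and 57.3, 49.3 and 52.8 in eWAT. Its mean was 29.4 times as high in eWAT as in BAT and 12.6 times as high in iWAT (iWAT: log2 difference -2.95, SE 0.37, adjusted p = 0.000161; eWAT: log2 difference -4.29, SE 0.37, adjusted p = 2.08e-05).

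Fads2, the delta-6 desaturase, was at or below 4.60 FPKM in every library and reached 1 FPKM only in white fat, so it passed the filter through those libraries and is named here after its values were seen. It had 0.411, 0.316 and 0.543 FPKM in BAT, 2.60, 4.60 and 1.41 in iWAT and 0.739, 3.62 and 1.98 in eWAT. Because that filter selects for high white fat values, its fitted differences from iWAT (-1.36) and eWAT (-1.02) are given as descriptions. Fads1, Fads2 and Fads3 lie within 155323 bases of chromosome 19, from 10116038 to 10271360, with Fads2 on the opposite strand to the other two. Their summed FPKM was 2.53 to 4.50 in BAT, 19.7 to 55.6 in iWAT and 73.8 to 80.8 in eWAT, and these ranges do not overlap.

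**Figure D3:**
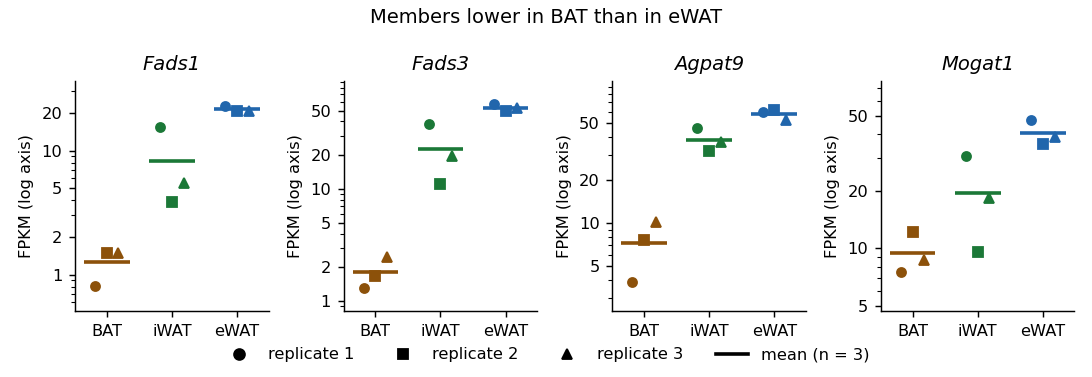
FPKM of Fads1, Fads3, Agpat9 and Mogat1 (log axes) by depot, with bars at the mean (n = 3) and marker shapes for replicate numbers. BAT is lowest by mean for all 4, eWAT is highest, and iWAT 1 lies nearest to eWAT among the iWAT libraries.

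Regulators. Among the 3 regulators, Mlxipl and Thrsp exceeded their iWAT levels in BAT, while Srebf1 was not called in either BAT comparison. Mlxipl, which encodes the glucose-responsive factor ChREBP (chromosome 5, 135582761 to 135614254, plus strand), had 18.7, 10.2 and 13.3 FPKM in BAT, 7.95, 3.33 and 2.70 in iWAT and 5.81, 6.88 and 7.42 in eWAT. The lowest BAT value lay above the highest white fat value. Mlxipl passed against iWAT (log2 difference 1.49, SE 0.34, adjusted p = 0.00473) and missed against eWAT (log2 difference 0.94, SE 0.34, adjusted p = 0.0574). The eWAT difference was called with median-ratio scaling (adjusted p = 0.0471), with adipocyte-marker scaling (0.00485) and without iWAT 1 (0.0111).

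Srebf1, which encodes SREBP-1, had 45.1, 40.8 and 39.6 FPKM in BAT, 64.8, 40.4 and 57.8 in iWAT and 49.3, 57.2 and 63.4 in eWAT. Its mean was lowest in BAT, with no overlap between BAT and eWAT, but no difference passed (iWAT: log2 difference -0.34, SE 0.23, adjusted p = 0.219; eWAT: log2 difference -0.42, SE 0.23, adjusted p = 0.175). Scaling changed this: Srebf1 was called lower in BAT than in iWAT with median-ratio scaling (-0.66, adjusted p = 0.0138), with quantile normalization (-0.72, adjusted p = 0.0143) and without iWAT 2 (adjusted p = 0.0484). The gene's transcripts for its SREBP-1a and SREBP-1c forms share this 1 value. The FPKM ratio of Mlxipl to Srebf1 ran from 0.251 to 0.415 in BAT, 0.0467 to 0.123 in iWAT and 0.117 to 0.120 in eWAT.

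Thrsp, a small acidic protein that acts with acetyl-CoA carboxylase and is known as a marker of lipogenic tissues, had 3995, 3712 and 3259.6 FPKM in BAT, 2227, 756 and 938 in iWAT and 1502, 1509 and 1979 in eWAT. No BAT library overlapped any white fat library. Thrsp was higher in BAT than in iWAT (log2 difference 1.64, SE 0.36, adjusted p = 0.00393) and than in eWAT (log2 difference 1.14, SE 0.36, adjusted p = 0.0340). The second call was weak: it was lost without any 1 of the 3 BAT libraries (adjusted p = 0.101, 0.0942 and 0.0734) or the 3 eWAT libraries (0.0677, 0.102 and 0.0564), with no filter (0.0941) and with quantile normalization (0.47, adjusted p = 0.303). Against iWAT it was lost with quantile normalization (0.84, adjusted p = 0.0578).

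Glycerol phosphate acyltransferases. The first acylation of glycerol 3-phosphate is carried by Gpam (mitochondrial GPAT1), Agpat6 (also called Gpat4) and Agpat9 (also called Gpat3), with Gpat2 as a 4th gene. Gpam and Agpat6 were higher in BAT, and Agpat9 was lower. Gpam (chromosome 19, 55142142 to 55201824, minus strand) had 15.7, 11.6 and 14.6 FPKM in BAT, 1.27, 0.889 and 1.62 in iWAT and 3.01, 3.46 and 4.23 in eWAT. All 3 BAT values exceeded all 6 white fat values, and Gpam was higher in BAT than in iWAT (log2 difference 2.73, SE 0.23, adjusted p = 1.63e-05) and than in eWAT (log2 difference 1.71, SE 0.23, adjusted p = 0.000277). Agpat6 had 162, 288 and 151 FPKM in BAT, 53.0, 54.3 and 50.7 in iWAT and 76.2, 69.4 and 50.8 in eWAT, and was higher in BAT in both comparisons (iWAT: log2 difference 1.84, SE 0.28, adjusted p = 0.000492; eWAT: log2 difference 1.56, SE 0.28, adjusted p = 0.00179). BAT 2 was the highest Agpat6 library of all.

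Agpat9 (chromosome 5, 101274732 to 101328121, plus strand) had 3.89, 7.64 and 10.1 FPKM in BAT, 46.3, 31.9 and 36.8 in iWAT and 59.7, 61.5 and 52.4 in eWAT. All 6 white fat values exceeded all 3 BAT values, and the gene was lower in BAT than in iWAT (log2 difference -2.32, SE 0.30, adjusted p = 0.000208) and than in eWAT (log2 difference -2.92, SE 0.30, adjusted p = 5.92e-05). In the annotation 1052 of its exonic bases, 30.0%, overlap an opposite-strand long noncoding RNA gene, 4930458D05Rik. Whether reads were counted by strand is not given in the sources used here, so the 2 genes' reads cannot be told apart. Gpat2 was listed at 0 in 8 libraries and at 0.162 FPKM in eWAT 3.

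The make-up of this family was described by shares and not tested. Agpat9 held 2.15 to 5.76% of the summed FPKM in BAT, 36.6 to 46.0% in iWAT and 43.0 to 48.7% in eWAT, while Agpat6 held 85.9 to 93.7%, 52.7 to 62.4% and 47.2 to 54.9%. The FPKM ratio of Gpam to Agpat9 ran from 1.44 to 4.03 in BAT, 0.0275 to 0.0440 in iWAT and 0.0504 to 0.0807 in eWAT. In BAT Gpam exceeded Agpat9 in every library, and in white fat it was the lower of the pair in every library.

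Lysophosphatidate acyltransferases. All 4 tested genes of the second acylation step were called higher in BAT against iWAT, 3 of them also against eWAT, beside 34.5% and 20.2% of all tested genes. Agpat2, whose loss is a known cause of congenital generalized lipodystrophy (chromosome 2, 26448577 to 26459937, minus strand), had 940.3, 640.1 and 684 FPKM in BAT, 67.8, 15.6 and 5.90 in iWAT and 64.8, 49.8 and 81.3 in eWAT. Its mean was 25.4 times as high in BAT as in iWAT and 11.6 times as high as in eWAT (iWAT: log2 difference 5.23, SE 0.65, adjusted p = 0.000157; eWAT: log2 difference 3.52, SE 0.65, adjusted p = 0.00212). Without iWAT 1 the BAT mean was 70.3 times that of iWAT. The iWAT libraries spread widely, with iWAT 1 at 67.8 FPKM near the eWAT values and iWAT 3 at 5.90 FPKM.

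Agpat1 had 78.2, 71.3 and 65.3 FPKM in BAT, 33.9, 10.8 and 12.5 in iWAT and 27.3, 26.4 and 27.0 in eWAT, and was higher in BAT than in iWAT (log2 difference 2.03, SE 0.36, adjusted p = 0.00119) and than in eWAT (log2 difference 1.38, SE 0.36, adjusted p = 0.0141). The eWAT call was lost without BAT 1 (adjusted p = 0.0525). Agpat3, which acylates lysophosphatidate and other lysophospholipids, had 111, 112 and 106 FPKM in BAT, 42.8, 28.0 and 23.6 in iWAT and 50.5, 42.5 and 41.4 in eWAT, and was higher in BAT in both comparisons (iWAT: log2 difference 1.81, SE 0.24, adjusted p = 0.000249; eWAT: log2 difference 1.28, SE 0.24, adjusted p = 0.00264). Agpat5 had 12.1, 14.7 and 11.4 FPKM in BAT, 6.72, 3.11 and 5.27 in iWAT and 8.76, 9.32 and 9.59 in eWAT. It was higher in BAT than in iWAT (log2 difference 1.22, SE 0.26, adjusted p = 0.00303) but not called against eWAT (log2 difference 0.41, SE 0.26, adjusted p = 0.227), except with adipocyte-marker scaling (adjusted p = 0.00720). Agpat4 stayed at or below 0.443 FPKM and was not tested.

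Agpat2 held 76.4 to 82.4% of the family's summed FPKM in BAT, 12.5 to 44.8% in iWAT and 38.8 to 50.9% in eWAT. The FPKM ratio of Agpat2 to Agpat1 ran from 8.97 to 12.0 in BAT, 0.470 to 2.001 in iWAT and 1.89 to 3.01 in eWAT. Agpat2 to Agpat3 ran from 5.71 to 8.51, 0.250 to 1.58 and 1.17 to 1.96 in the same order, and BAT did not overlap white fat for either pair.

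**Figure D4:**
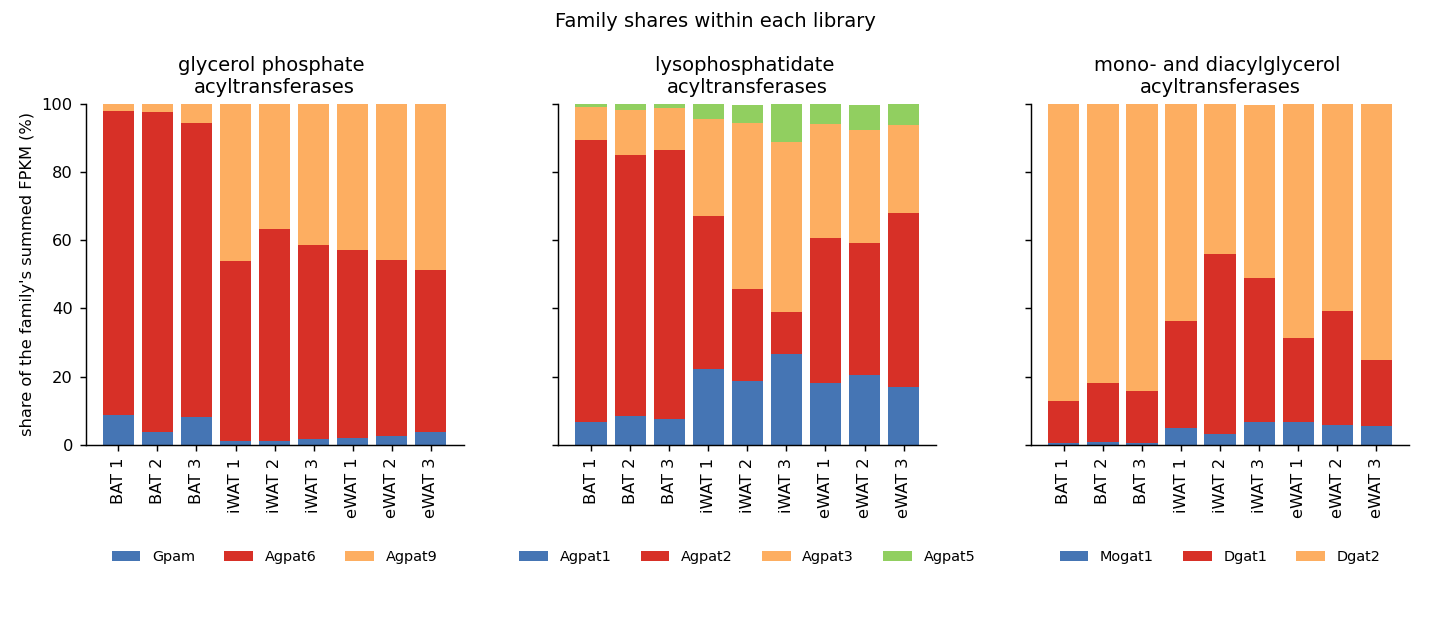
Share of each family's summed FPKM (y axis, %) taken by its members in each of the 9 libraries (x axis), for the glycerol phosphate, the lysophosphatidate and the mono- and diacylglycerol acyltransferases. Agpat9 takes 2.15 to 5.76% in BAT and at least 36.6% in every white fat library, and Agpat2 takes 76.4 to 82.4% in BAT and at most 50.9% in white fat; members too low to see are not labelled.

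Phosphatidate phosphatases. Lpin1 (lipin-1), which makes diacylglycerol from phosphatidate, had 19.5, 14.3 and 20.1 FPKM in BAT, 15.2, 10.1 and 12.0 in iWAT and 14.1, 16.0 and 18.9 in eWAT. BAT overlapped both white depots, and neither difference passed (iWAT: log2 difference 0.50, SE 0.24, adjusted p = 0.0941; eWAT: log2 difference 0.12, SE 0.24, adjusted p = 0.709), although without iWAT 1 Lpin1 was called higher in BAT than in iWAT (adjusted p = 0.0288). Lpin2 stayed between 0.495 and 1.11 FPKM and was not tested. Lpin3, named here after its values were seen, passed the filter only through the iWAT libraries, with 0.725, 0.460 and 0.689 FPKM in BAT, 1.30, 1.39 and 1.09 in iWAT and 0.514, 0.790 and 0.828 in eWAT. Its fitted difference from iWAT (-0.48) is therefore given as a description.

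Mono- and diacylglycerol acyltransferases. Dgat2 and Dgat1 both perform the last step to triglyceride and are unrelated in sequence. Dgat2 (chromosome 7, 106302173 to 106331223, minus strand) had 1458, 1257 and 1281 FPKM in BAT, 383, 129 and 137 in iWAT and 484, 368 and 512 in eWAT. The lowest BAT library, at 1257 FPKM, lay far above the highest white fat library, at 512 FPKM. Dgat2 was higher in BAT than in iWAT (log2 difference 2.81, SE 0.38, adjusted p = 0.000251) and than in eWAT (log2 difference 1.56, SE 0.38, adjusted p = 0.00994). Dgat1 had 207, 269 and 232 FPKM in BAT, 187, 154 and 113 in iWAT and 173, 204 and 131 in eWAT. BAT lay above every iWAT library, yet the difference missed the threshold (log2 difference 0.66, SE 0.26, adjusted p = 0.0507), and so did that against eWAT (log2 difference 0.49, SE 0.26, adjusted p = 0.160). Dgat1 was called higher in BAT than in iWAT without iWAT 1 (adjusted p = 0.0132) and among genes with a mean of at least 5 FPKM (0.0465), and than in eWAT with adipocyte-marker scaling (0.0119). The FPKM ratio of Dgat2 to Dgat1 ran from 4.68 to 7.04 in BAT, 0.835 to 2.04 in iWAT and 1.81 to 3.92 in eWAT.

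Mogat1, which acylates monoacylglycerol, was lower in BAT than in eWAT (log2 difference -2.01, SE 0.37, adjusted p = 0.002002). Its values were 7.48, 12.3 and 8.67 FPKM in BAT, 30.6, 9.55 and 18.4 in iWAT and 47.6, 35.5 and 38.8 in eWAT, where BAT and iWAT overlapped through iWAT 2. Against iWAT the difference missed the threshold (log2 difference -0.86, SE 0.37, adjusted p = 0.0663), but it was called lower with median-ratio scaling (-1.15, adjusted p = 0.0153), quantile normalization (-1.11, adjusted p = 0.0235), adipocyte-marker scaling (-1.17, adjusted p = 0.00325) and without iWAT 2 (-1.27, adjusted p = 0.00778). Mogat2, next to Dgat2 on chromosome 7 (chromosome 7, 106367594 to 106387129, minus strand), stayed at or below 0.819 FPKM and was not tested.

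No member was called between iWAT and eWAT, where the same test called 0.231% of all tested genes higher and 1.5% lower in iWAT. The libraries did not overlap for 1 member with iWAT higher and 6 with iWAT lower, beside 3.1% and 19.5% of all tested genes. By unadjusted p below 0.05 there were 8 of the 26 members and 2710 of the 10374 tested genes. Of the 26 members, 19 had a negative difference, beside 60.8% of all tested genes, and the median was -0.48, beside -0.18. Gpam came closest to a call (log2 difference -1.02, SE 0.23, adjusted p = 0.0523), followed by Fads1 (log2 difference -1.49, SE 0.39, adjusted p = 0.0777) and Fads3 (log2 difference -1.34, SE 0.37, adjusted p = 0.0858). The eWAT values of Fads1 lay between 20.9 and 22.7 FPKM, and those of Fads3 between 49.3 and 57.3 FPKM, all above every iWAT library.

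This comparison depended on iWAT 1. That library held the highest iWAT value for 22 of the 26 members and the lowest for none of them, while it was highest for 49.0% of all tested genes. Its adipocyte marker sum was also the highest of the iWAT libraries, at 48264 FPKM beside 31291 and 37547 FPKM in iWAT 2 and 3, and the part of this in the result was not tested. Without iWAT 1, in a fit that kept eWAT 1 and used no pairing by replicate number, 12 of 25 members were lower in iWAT than in eWAT and none higher, where 27.8% of all tested genes were called lower and 4.44% higher. The median difference was then -0.77, beside -0.25 over all tested genes. Because iWAT 1 was the highest iWAT library for 22 of the 26 members, leaving it out lowers their iWAT means. Standard errors changed too. That of Dgat2 fell from 0.378 to 0.191, and that of Gpam rose from 0.227 to 0.24 with a nearly unchanged difference (-1.018 and -1.028). What brought the new calls was not tested. Leaving out any other library called no member, so the values without iWAT 1 are descriptions.

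The 12 genes were Scd1, Fads1, Fads3, Mlxipl, Thrsp, Gpam, Agpat1, Agpat2, Agpat3, Agpat5, Mogat1 and Dgat2. Dgat2 differed by -1.76, SE 0.19, adjusted p = 0.000905, Agpat2 by -2.60, SE 0.37, adjusted p = 0.00211 and Scd1 by -1.49, SE 0.41, adjusted p = 0.0250 on the log2 scale. Fads1 (-2.005, SE 0.23, adjusted p = 0.00112) and Fads3 (-1.76, SE 0.27, adjusted p = 0.00287) also passed. Acly (0.03, SE 0.43, adjusted p = 0.965), Fasn (-0.68, SE 0.40, adjusted p = 0.192) and Acaca (-0.23, SE 0.31, adjusted p = 0.558) did not. Over all genes the calls in this comparison, 24 higher and 156 lower, became 33 and 72 with median-ratio scaling, 42 and 99 with quantile normalization and 50 and 13 with adipocyte-marker scaling. Scaling all 9 libraries on the 6 adipocyte markers turned the sign of 12 members to positive in this comparison, none of them called in either fit.

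**Figure D5:**
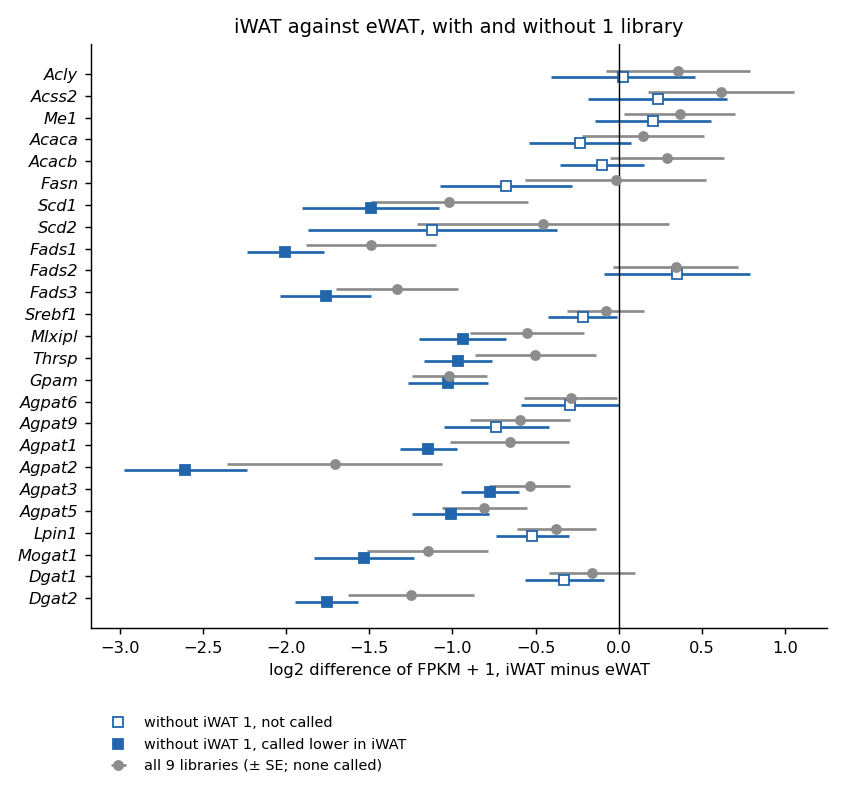
Log2 differences between iWAT and eWAT for the tested members with all 9 libraries and without iWAT 1 (log2(FPKM + 1) units). Leaving out iWAT 1 moves most points to the left, and 12 members pass an adjusted p below 0.05 without it and none with it.

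Across the 26 members, the mean was highest in BAT for 18, in eWAT for 5 and in iWAT for 3, beside 44.7%, 25.3% and 30.0% of all tested genes. The median coefficient of variation over the members was 23.7% in BAT, 52.9% in iWAT and 17.4% in eWAT, beside 15.5%, 39.1% and 24.8% over all tested genes.

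Other genes of the pathway were taken from a list of 39 drawn up by function, with earlier results of these data known. Counts from this list and its parts are therefore descriptions and not independent support. Of the 39, 37 were in the table and 36 were tested. In BAT against iWAT 21 were higher and 2 lower (median 0.99), beside 34.5% and 22.9% of all tested genes (median 0.23). In BAT against eWAT 14 were higher and none lower (median 0.50), beside 20.2% and 13.5% (median -0.02). None was called between iWAT and eWAT. Gpd1, which makes glycerol 3-phosphate, had 1057 ± 50.7 FPKM (SD, n = 3) in BAT, 103 ± 55.2 in iWAT and 63.9 ± 14.2 in eWAT (iWAT: log2 difference 3.47, SE 0.33, adjusted p = 3.80e-05; eWAT: log2 difference 4.05, SE 0.33, adjusted p = 1.60e-05). Acsl5, an acyl-CoA synthetase, had 86.6 ± 18.1, 9.10 ± 3.26 and 14.0 ± 1.52 FPKM in the same order (iWAT: log2 difference 3.15, SE 0.28, adjusted p = 2.44e-05; eWAT: log2 difference 2.53, SE 0.28, adjusted p = 8.97e-05). Acsl1, another acyl-CoA synthetase, was higher in BAT in both comparisons (1.58 and 1.97), and Fitm2, which acts in lipid droplet formation, was higher in BAT than in iWAT (1.61) and was not called against eWAT (0.26, adjusted p = 0.658).

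Of 8 genes of citrate and NADPH supply, 6 were called higher in BAT against iWAT and 4 against eWAT, beside 34.5% and 20.2% of all tested genes. G6pdx and Pgls, of the oxidative pentose phosphate pathway, differed by 2.04 and 1.57 against iWAT and by 1.23 and 1.23 against eWAT. Tkt, transketolase, differed by 1.28 and 1.78. The citrate carrier Slc25a1, named here after its values were seen, was not called (iWAT: log2 difference 0.94, SE 0.39, adjusted p = 0.0583; eWAT: log2 difference 0.74, SE 0.39, adjusted p = 0.158).

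All 5 tested genes of mitochondrial fatty acid synthesis were called higher in BAT against iWAT, as were 3 against eWAT, beside 34.5% and 20.2% of all tested genes. The largest difference was that of Mecr, an enoyl-CoA reductase, with 243 ± 28.6 FPKM (SD, n = 3) in BAT, 26.4 ± 15.4 in iWAT and 47.5 ± 4.27 in eWAT (iWAT: log2 difference 3.30, SE 0.35, adjusted p = 6.54e-05; eWAT: log2 difference 2.32, SE 0.35, adjusted p = 0.000625). Ndufab1, the mitochondrial acyl carrier protein and also a subunit of respiratory complex I, differed by 1.92 and 1.68. Of the other two genes named by size, Cbr4 differed by 2.06 against iWAT and Oxsm by 1.03 against eWAT.

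Of 14 regulators of lipogenic transcription, 4 were higher and 2 lower in BAT than in iWAT, and 4 were higher than in eWAT. These are 28.6% and 14.3% of the list against iWAT, below the 34.5% and 22.9% of all tested genes, and 28.6% against eWAT, beside 20.2%. Nr1h2, which encodes the liver X receptor beta, had 27.1 ± 4.16 FPKM (SD, n = 3) in BAT, 4.53 ± 1.45 in iWAT and 5.91 ± 1.31 in eWAT (iWAT: log2 difference 2.37, SE 0.26, adjusted p = 7.70e-05; eWAT: log2 difference 2.03, SE 0.26, adjusted p = 0.000215). Insig1, which retains the SREBP precursor complex, differed by 1.82 and 2.04, and Mlx, the partner of ChREBP, by 1.56 and 1.53. The 2 genes lower in BAT than in iWAT were Mbtps2, a protease that releases SREBP (-1.61), and Usf1 (-0.51). Usf1 and the remaining gene counted as higher in both comparisons, Prkaa2, are named after their values were seen. Prkaa2 reached 1 FPKM only in BAT (1.53, 2.17 and 1.78 FPKM, and at most 0.83 in white fat), so the filter selected it through BAT and its call is not read as a result.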

How the data were processed

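Ribosome-bound RNA of 9 libraries (3 each of BAT, iWAT and eWAT) was read from 1 deposited table of FPKM values. Its header names no unit; per the submitters' processing notes the authors used TopHat and Cufflinks on build mm9, versions not given, and the values behave as FPKM. The 22996 lines hold 22527 symbols; 728 lines repeat a symbol, of which the one of highest mean was used (none is a member's). FPKM carry no read counts, so depth was estimated from steps in low values: only 43.7 to 63.4% of values lay within 0.15 reads of a whole number, so no count test was run. The number of libraries, 3 per depot, limits the precision.

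Genes at or above 1 FPKM in at least 3 libraries (10374) were fitted on log2(FPKM + 1) with limma 3.58.1 (R 4.3.3) over all 9 libraries, with trended empirical Bayes, 6 residual degrees of freedom and Benjamini-Hochberg adjustment over all tested genes; the script was tested on simulated data. Members and supporting lists were chosen with earlier results of these data known. Members with a depot mean of at least 5 FPKM (24) were named with every library's value, and up to 3 called genes with the largest change per supporting list and comparison. Positions come from GENCODE vM1 on mm9. Sequence windows are RefSeq's.

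Alternatives changed the pseudocount (0.1), the filter (none, or a mean of at least 5 FPKM), the scaling (median ratio, quantile), added the replicate number as a block, or left out each library. Scaling on the adipocyte markers Adipoq, Fabp4, Plin1, Pparg, Cidec and Lipe was added after seeing the data. Deviations from depot means correlated between same-numbered iWAT and eWAT libraries at 0.634, 0.534 and 0.165 for numbers 1, 2 and 3. Differently numbered libraries reached 0.228 (iWAT 2 with eWAT 3) and 0.105 (iWAT 3 with eWAT 2), so pairing was not settled, least for number 3. Same-numbered values were -0.324 to 0.121 for BAT against iWAT and -0.388 to 0.103 for BAT against eWAT. Differently numbered libraries reached 0.335 (BAT 2 with iWAT 1) and 0.374 (BAT 2 with eWAT 1). With 3 libraries per depot, such correlations cannot settle whether the numbers pair BAT with white fat. The main fit used no pairing, and the block fit applied the numbers to all 3 depots.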

Additional observations from a re-analysis of the deposited data

How the results depend on the processing

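In the 2 BAT comparisons the directions of all called members held under every alternative run, and counts of members, and of all genes called in either direction together, stayed within 1.5 times except as given here. With a mean of at least 5 FPKM, which tests fewer genes, 3783 genes were called in BAT against iWAT (5961 with the 1 FPKM filter) and 2244 in BAT against eWAT (3492). Of the 24 members tested with that filter, 3 were lower in BAT than in iWAT, beside 1374 of 5934 genes. Quantile normalization called 8 of the 26 members lower in BAT than in iWAT, beside 2851 of 10374 genes. Median-ratio scaling moved the median of all genes in BAT against iWAT from 0.23 to -0.02, and adipocyte-marker scaling moved it in BAT against eWAT from -0.02 to 0.51 and in iWAT against eWAT from -0.18 to 0.57. Genes called in iWAT against eWAT, 180 at first, were 90 with a pseudocount of 0.1, 93 with no filter, 79 with a mean of at least 5 FPKM, 105 with median-ratio scaling and 63 with adipocyte-marker scaling. The cause of these changes was not tested beyond what each alternative alters.

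Some uncalled differences changed sign. In BAT against eWAT, Me1 was -0.04 with median-ratio scaling and -0.32 with quantile normalization, Lpin3 was 0.16 with quantile normalization and 0.17 with adipocyte-marker scaling, and Srebf1 was 0.24 with the latter. In iWAT against eWAT, median-ratio scaling gave Fasn 0.25, Srebf1 0.19 and Dgat1 0.11, and quantile normalization 0.15, 0.14 and 0.06. Adipocyte-marker scaling there gave Fasn 0.97, Scd2 0.48, Srebf1 0.91, Mlxipl 0.27, Thrsp 0.50, Agpat6 0.70, Agpat9 0.39, Agpat1 0.30, Agpat3 0.44, Agpat5 0.05, Lpin1 0.56 and Dgat1 0.84.

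Leaving out 1 library gave 4289 to 6829 genes in BAT against iWAT, 2141 (without BAT 3) to 4422 (without iWAT 1) in BAT against eWAT, and 15 (without eWAT 3) to 3315 (without iWAT 1) in iWAT against eWAT, where members called lower ran from 0 to 12. By direction over all genes, those lower in BAT than in eWAT (1398) became 2217 without eWAT 1, more than the 1921 higher, and 794, 784, 852 and 816 without BAT 2, BAT 3, eWAT 2 and eWAT 3, and those higher (2094) became 1329, 1348 and 1357 without BAT 1, 2 and 3. Those lower in BAT than in iWAT (2378) became 1578 without BAT 2, and those lower in iWAT than in eWAT (156) became 4 to 64 without any 1 library other than iWAT 1. Differences that crossed zero ran, in BAT against eWAT, from -0.30 to 0.30 for Me1, -0.21 to 1.16 for Scd2 and -0.16 to 0.00 for Lpin3. In iWAT against eWAT they ran from -0.02 to 0.68 for Acly and for Fads2, -0.23 to 0.42 for Acaca, -0.10 to 0.60 for Acacb, -0.68 to 0.49 for Fasn, -1.12 to 0.25 for Scd2, -0.22 to 0.12 for Srebf1 and -0.33 to 0.03 for Dgat1.

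With the replicate number as a block, 15 members were higher and 4 lower in BAT than in iWAT, and 12 and 5 in BAT against eWAT. Over all 10374 genes tested in that fit, 3635 were higher and 2445 lower against iWAT, and 2128 and 1497 against eWAT. Between iWAT and eWAT the block fit called no member (221 genes). Dgat1 was then higher in BAT than in iWAT (adjusted p = 0.0407), Mlxipl higher (0.0460) and Fads2 lower (0.0423) in BAT than in eWAT, and the Lpin3 call was lost (0.0705); the block changed no other member's call. Estimated depth in iWAT was the lowest, 2.91 to 4.65 M reads, so members near 1 FPKM are least certain there.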
